A study of Mus musculus with 8 samples.

Results

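The clustered replication-dependent histone genes were chosen by name: every row of the joint expression table for a gene of the H2ac, H2bc, H3c or H4c series or for H1f1 to H1f5. This gave 63 genes of the 55223 rows, of which 57 reached a mean of 0.5 TPM (transcript level per length, as a share of the library) over the 8 libraries and were among the 16908 loci tested. There were 4 linker histone H1 genes, 18 H2A, 17 H2B, 11 H3 and 13 H4 genes, of which 3, 16, 17, 10 and 11 were tested. The files place 52 of them on chromosome 13, 8 on chromosome 3, 2 on chromosome 11 and 1 on chromosome 6 (GRCm39). Expression was compared after a BMP pulse and between the vehicle cultures of 2 sets of isolations. The rows of 4 members also carry other genes, and their values are those of the whole row: H2ac25 with Trim17, H2ac6 with Gm55645, H2ac18 with Gm20634 and H3c14, and H2bc6 with Gm11398 and H1f4.

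Replication-dependent histone genes supply the proteins that package newly copied DNA: an octamer of H2A, H2B, H3 and H4 forms the nucleosome core, and H1 binds the linker DNA between cores. They have no introns as a rule and are transcribed chiefly in S phase. Their mRNAs normally end in a conserved stem-loop, bound by the stem-loop binding protein SLBP, in place of a poly(A) tail, although some members also give polyadenylated transcripts, for instance in differentiated cells. In skeletal muscle, stem cells divide as myoblasts and leave the cell cycle before they fuse. Libraries selected for poly(A), as here, take up the tailed transcripts.

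Muscle stem cells came from wild-type C57BL/6J females aged 6 to 8 weeks. All cultures were expanded for 2 days on Matrigel and then held for 6 h in serum-free medium to which BMPR-IA-Fc (200 ng/ml), a receptor fragment that captures BMPs, was added. In set a, named like set b after the letter that ends the replicate labels, cultures of isolations 48 and 54 received 100 ng/ml BMP4 for 1 h (BMP4) or its vehicle, 4 mM HCl with 0.1% BSA (vehicle_a). In set b, cultures of isolations 75 and 77 received 100 ng/ml BMP6 for 1 h (BMP6) or the same vehicle (vehicle_b). Each group had 2 libraries, 1 per isolation, so p values measure the spread between these isolations. Whether an isolation pooled animals is not given in the sources used here.

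Library depth, estimated from coverage, lay between 48012828 and 58002740 reads. Muscle stem cell markers were present in each library, with Myod1 at 422 to 839 TPM and Pax7 at 11.1 to 16.9 TPM, except Calcr, the 1 of 8 below the level tested, at 0.0753 to 0.279 TPM. The 6 early BMP target genes summed to 785 and 764 TPM in BMP4 cultures, against 478 and 271 TPM in vehicle_a cultures, and to 997 and 1104 TPM in BMP6 cultures, against 365 and 387 TPM in vehicle_b cultures.

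The 3′ stem-loop was read from the reference transcripts of the members (GENCODE, GRCm38 build, matched by transcript), because it decides how such an mRNA normally ends. The letters GG, any 2 bases, CTTTT, any base, AG, any 2 bases and CC, searched as 1 run on the sense strand, occurred in 41 of the 63 members and in 89 of 55450 genes (0.161%), of which 43 were models of this family. One example per class is shown with 6 bases on either side and the stem-loop in capitals. The second H4 gene, H4c9, has the stem of H4c3 with T in place of C in the loop.
H1f2: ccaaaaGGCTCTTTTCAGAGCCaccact
H2ac6: cccaaaGGCTCTTTTCAGAGCCcccact
H2bc12: accaaaGGCTCTTTTAAGAGCCactaaa
H3c4: cccaaaGGCTCTTTTCAGAGCCaccccc
H4c3: acaaaaGGCCCTTTTCAGGGCCacccac
H4c9: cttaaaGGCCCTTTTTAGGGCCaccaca
The form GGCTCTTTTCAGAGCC was the commonest, with 24 members of the H1, H2A, H2B and H3 classes. All 11 H4 genes with the letters carried another stem, 7 of them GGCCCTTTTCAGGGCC. In 19 members the reference transcript runs on for more than 100 bases after the stem-loop, by 840 bases in H1f2, 1214 in H2bc9, 2010 in H2ac6 and 4884 in H1f3, and in 22 members by 100 bases or fewer. The other 22 members have no such letters in their model, among them H2bc4, whose model is spliced. Several of these models are short, with 312 bases in H4c12, 381 in H2bc13 and H2bc15 and 411 in H3c10 and H3c11. The letters may lie past the end of such a model, so their absence does not show that the gene lacks the stem-loop.

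RefSeq promoter sequences (GRCm38.p6, 250 bases before to 50 after the start) were given for 54 members. A gene was counted where any of its promoters held the motif. CCAAT on either strand was in 46 of these members (85.2%), against 41.1% of all 27025 genes with a promoter given. It was in every H1, H2A, H2B and H3 gene given and in 3 of 11 H4 genes. TATAAA on either strand was in 33 of 54 (61.1%), against 15.7% of all these genes. The octamer ATTTGCAT, known as the OCT1 element of H2B genes, was in 6 of 13 H2B and 6 of 17 H2A genes, against 1.97% of all genes. It was in none of the H1, H3 or H4 promoters given. None of these motifs contains another, and a match describes the sequence only. Promoter windows of neighbouring H2B and H2A genes can overlap, so a site can be counted for both genes. The promoters of H2bc12 (chr13:22035571-22035870, plus strand) and H4c9 (chr13:22041313-22041612, minus strand) are shown because H2bc12 holds all 3 motifs and H4c9 only TATAAA, and their genes rose together between the vehicle groups. Capitals mark these motifs or their reverse complements.
H2bc12 promoter: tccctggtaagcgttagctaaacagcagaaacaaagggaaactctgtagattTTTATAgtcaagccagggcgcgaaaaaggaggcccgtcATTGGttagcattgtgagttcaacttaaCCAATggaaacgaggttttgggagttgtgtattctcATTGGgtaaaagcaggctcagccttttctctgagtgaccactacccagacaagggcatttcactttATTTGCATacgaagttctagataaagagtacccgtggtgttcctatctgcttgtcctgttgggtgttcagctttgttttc
H4c9 promoter: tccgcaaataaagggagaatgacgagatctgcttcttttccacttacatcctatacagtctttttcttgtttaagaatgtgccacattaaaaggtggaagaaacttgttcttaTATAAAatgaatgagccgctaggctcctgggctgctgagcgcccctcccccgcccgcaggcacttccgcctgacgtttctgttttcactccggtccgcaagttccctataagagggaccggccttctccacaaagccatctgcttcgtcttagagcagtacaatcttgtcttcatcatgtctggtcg
The H2bc12 window also covers most of the promoter of H2ac12, which is transcribed the other way.

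Histone genes stood much higher in the vehicle cultures of set b than in those of set a. Of the 57 members tested, 50 were higher in vehicle_b cultures (limma, adjusted p under 0.05), against 10.6% of all 16908 loci, and none was lower, against 16.6% of all loci. The median log2 change was 1.14 over the members and -0.01 over all loci. Of the 53 members whose row carries no other gene, 47 were higher, with a median of 1.14. Summed over the 63 members, expression was 925 and 901 TPM in vehicle_b cultures, against 356 and 363 TPM in vehicle_a cultures, a ratio of 2.54. For 53 of the 57 members tested all 4 libraries of isolations 75 and 77 lay above all 4 of isolations 48 and 54, which held for 25.9% of all loci. Both vehicle groups were treated alike by the labels, so the set, its isolations and its handling cannot be told apart. In bulk samples, fewer cells of a type and less RNA per cell cannot be told apart either.

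The number of calls rested on single libraries, while the size of the change did so less. Without vehicle_b of isolation 75 or of isolation 77, 0 members were called, beside 12 and 5 of all loci, with a median log2 change over the members of 1.06 and 1.24. Without vehicle_a of isolation 54, 21 members were called and 420 of all loci, with a median of 1.24. Without vehicle_a of isolation 48, 45 members were called and 5244 of all loci, with a median of 0.98. In each of these fits the lone library of a group is assumed to vary like the other groups. The plot of summed expression shows the classes by library.

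**Figure D1:**
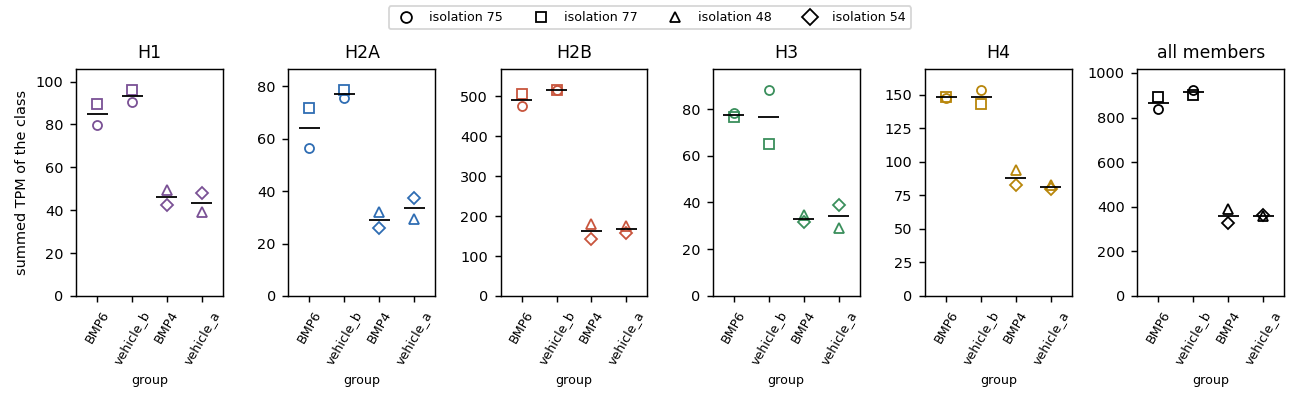
Summed TPM (y axis) of the members of each histone class, and of all 63 members, in each library, by group (x axis); symbols mark the isolation and bars the mean of 2 libraries. In each panel the BMP6 and vehicle_b libraries lie above the BMP4 and vehicle_a libraries, and for all members vehicle_b stands at 901 and 925 TPM and vehicle_a at 356 and 363 TPM.

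The classes differed in the size of the change. The H2B sum was 517 and 517 TPM in vehicle_b cultures, against 176 and 159 TPM in vehicle_a cultures, a ratio of 3.09. The H2A sum was 75.5 and 78.8 TPM in vehicle_b, against 29.5 and 37.6 TPM in vehicle_a, a ratio of 2.30. The H3 sum was 88.3 and 65.1 TPM in vehicle_b, against 29.0 and 39.1 TPM in vehicle_a, a ratio of 2.25. H3 was thus the class whose vehicle_b libraries lay furthest apart. The H1 sum, nearly all from H1f2, was 90.7 and 96.3 TPM in vehicle_b, against 39.3 and 47.9 TPM in vehicle_a, a ratio of 2.14. The H4 sum was 154 and 143 TPM in vehicle_b, against 82.6 and 79.6 TPM in vehicle_a, the smallest ratio of the 5 classes at 1.83. The difference between classes was not tested, and reads shared by paralogs enter a sum more than once.

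Among the linker histones, H1f2 was the main gene and rose (chromosome 13, 23922791 to 23924350). H1f2 had 86.8 and 92.4 TPM in vehicle_b cultures, against 38.0 and 46.0 TPM in vehicle_a cultures (log2 change 1.09, SE 0.14, adjusted p = 0.00858). Its BMP6 and BMP4 cultures lay beside their own vehicles, at 77.2 and 85.8 TPM and 47.3 and 41.1 TPM, so set b stood above set a in all libraries. H1f3 had 1.98 and 2.22 TPM in vehicle_b cultures, against 0.730 and 1.04 TPM in vehicle_a cultures (log2 change 0.92, SE 0.22, adjusted p = 0.0309), also without overlap. H1f5 had 1.28 and 1.10 TPM in vehicle_b cultures, against 0.510 and 0.457 TPM in vehicle_a cultures, and it was not called (log2 change 0.78, SE 0.32, adjusted p = 0.106). H1f1, the remaining H1 gene with a row, lay between 0.0723 and 0.704 TPM in all libraries, below the level tested.

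Of the 16 H2A genes tested, 12 rose, with a median log2 change of 1.11 over all 16. H2ac25 was the most abundant (chromosome 11, 58845511 to 58863924), and its row also carries Trim17. H2ac25 had 11.6 and 15.5 TPM in vehicle_b cultures, against 5.34 and 6.92 TPM in vehicle_a cultures (log2 change 1.08, SE 0.22, adjusted p = 0.0218). H2ac23 had 6.90 and 6.74 TPM in vehicle_b cultures, against 2.62 and 2.40 TPM in vehicle_a cultures (log2 change 1.28, SE 0.19, adjusted p = 0.0105). The neighbouring copy H2ac24 shares 93.5% of the 50-nt windows of H2ac23, so their reads cannot be separated. H2ac24 had 6.77 and 6.76 TPM in vehicle_b cultures, against 2.59 and 2.38 TPM in vehicle_a cultures (log2 change 1.28, SE 0.18, adjusted p = 0.00987). The largest change in the class was that of the row of H2ac6, which also holds Gm55645. The H2ac6 row had 3.72 and 5.70 TPM in vehicle_b cultures, against 0.801 and 0.746 TPM in vehicle_a cultures (log2 change 2.01, SE 0.21, adjusted p = 0.00623). Its 4 libraries of isolations 75 and 77 ranged from 3.39 to 5.70 TPM, and the other 4 from 0.634 to 0.801 TPM. The H2ac6 model alone, of whose windows 85.9% were its own, had 2.72 and 2.39 TPM in vehicle_b cultures, against 0.518 and 0.558 TPM in vehicle_a cultures. H2ac13, H2ac7, H2ac8 and H2ac4 rose by 1.23, 1.22, 1.16 and 1.13 on the log2 scale, in that order. H2ac11, H2ac12, H2ac10 and H2ac22 rose by 1.11, 1.11, 1.03 and 0.95, in that order. H2ac1, a testis H2A gene, did not exceed 0.111 TPM, and H2ac19 was listed at 0 throughout.

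H2B held the highest levels and the largest changes: 16 of 17 genes rose, with a median log2 change of 1.51. H2bc4 had the highest mean level of all members (chromosome 13, 23868182 to 23876891). H2bc4 had 110.5 and 110.2 TPM in vehicle_b cultures, against 37.2 and 32.7 TPM in vehicle_a cultures (log2 change 1.65, SE 0.14, adjusted p = 0.00437). Its model has 2 exons, of which exon 1 (423 nt) codes for the histone and shares most of its windows with other H2B genes, only 13.1% being its own. The second exon (733 nt) holds 98.0% own windows and so tracks H2bc4 itself. Coverage of this exon, scaled to TPM, was 76.9 and 78.9 in vehicle_b cultures, against 21.2 and 18.9 in vehicle_a cultures. In BMP6 cultures it was 70.8 and 74.6, and in BMP4 cultures 26.2 and 20.0, so the sets did not overlap. A spliced H2bc4 transcript of this kind ends past the histone exon, without stem-loop letters in its model.

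H2bc1 had 57.4 and 52.9 TPM in vehicle_b cultures, against 21.3 and 19.8 TPM in vehicle_a cultures (log2 change 1.40, SE 0.17, adjusted p = 0.00741). H2bc1 is known as the testis H2B gene. Of its windows 61.8% were its own, so reads of other H2B genes may be part of its values. H2bc11 had 57.4 and 54.7 TPM in vehicle_b cultures, against 20.2 and 19.2 TPM in vehicle_a cultures (log2 change 1.48, SE 0.17, adjusted p = 0.00677). Both genes were thus at nearly the same level, and 128 windows are common to them, 38.2% of those of H2bc1. The largest change of all members was that of H2bc15 (chromosome 13, 21938293 to 21938673). H2bc15 had 26.1 and 35.4 TPM in vehicle_b cultures, against 3.78 and 2.58 TPM in vehicle_a cultures (log2 change 3.09, SE 0.24, adjusted p = 0.00398). Only 13.6% of its windows were its own, so reads of other H2B genes may be part of these values. In BMP6 cultures it stood at 24.0 and 31.2 TPM and in BMP4 cultures at 4.13 and 3.30 TPM.

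H2bc7 had 23.7 and 27.0 TPM in vehicle_b cultures, against 7.19 and 5.99 TPM in vehicle_a cultures (log2 change 1.87, SE 0.20, adjusted p = 0.00609). H2bc27 had 3.53 and 4.46 TPM in vehicle_b cultures, against 0.639 and 0.852 TPM in vehicle_a cultures (log2 change 1.85, SE 0.20, adjusted p = 0.0063). H2bc27 is 1 of the 2 members on chromosome 11, with 77.9% own windows, and it rose like its neighbour H2ac25. H2bc12 had 25.8 and 27.5 TPM in vehicle_b cultures, against 8.40 and 6.59 TPM in vehicle_a cultures (log2 change 1.77, SE 0.17, adjusted p = 0.00529). H2bc24 holds all 1205 windows of H2bc23 and both rose by 1.64, so they count as 1 measurement. H2bc13, H2bc3, H2bc8 and H2bc22 rose by 1.57, 1.51, 1.43 and 1.40 on the log2 scale, in that order. H2bc9, H2bc14 and H2bc6 rose by 1.38, 1.26 and 0.95, in that order. The value of H2bc6 is that of a row with Gm11398 and H1f4, and the H2bc6 model with reads in the vehicle libraries had 8.84 and 7.24 TPM in vehicle_b, against 3.03 and 2.31 TPM in vehicle_a. H1f4, a further linker histone without a row of its own, had a model at 0.0582 to 1.24 TPM. H3c14 and H2bc18, likewise models within other rows, did not exceed 0.506 and 0.0471 TPM.

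Of the 10 H3 genes tested, 9 rose, with a median log2 change of 1.14. H3c10 had 15.5 and 10.6 TPM in vehicle_b cultures, against 4.97 and 6.17 TPM in vehicle_a cultures (log2 change 1.14, SE 0.22, adjusted p = 0.0191). H3c11 had 15.1 and 10.2 TPM in vehicle_b cultures, against 4.48 and 6.41 TPM in vehicle_a cultures (log2 change 1.14, SE 0.24, adjusted p = 0.0233). These genes share 79.3% of their windows and moved alike, with vehicle_b of isolation 75 above that of isolation 77 in both. H3c8 had 12.2 and 9.70 TPM in vehicle_b cultures, against 3.36 and 4.05 TPM in vehicle_a cultures (log2 change 1.44, SE 0.21, adjusted p = 0.0101), the largest change among H3 genes. H3c6, H3c4, H3c7 and H3c2 rose by 1.32, 1.20, 1.18 and 1.12 on the log2 scale, in that order, and H3c1 and H3c3 by 0.92 and 0.86. H3c4 had the largest share of own windows among them, 75.2%.

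All 11 H4 genes tested rose, and they did so less: 9 of them by 0.65 to 0.87 on the log2 scale. H4c9 had 29.9 and 26.3 TPM in vehicle_b cultures, against 16.9 and 17.1 TPM in vehicle_a cultures (log2 change 0.71, SE 0.12, adjusted p = 0.0137). H4c12 had 21.4 and 20.8 TPM in vehicle_b cultures, against 12.1 and 10.6 TPM in vehicle_a cultures (log2 change 0.87, SE 0.15, adjusted p = 0.0157). H4c2 had 15.1 and 15.0 TPM in vehicle_b cultures, against 9.11 and 8.48 TPM in vehicle_a cultures (log2 change 0.74, SE 0.14, adjusted p = 0.019). The libraries of each group lay close together in these 3 genes. H4c17 had 16.5 and 13.7 TPM in vehicle_b cultures, against 5.24 and 7.38 TPM in vehicle_a cultures (log2 change 1.21, SE 0.18, adjusted p = 0.0109), and H4c18, which shares 83.2% of its windows with H4c17, rose by 1.14. H4c8, H4c11, H4c1 and H4c4 rose by 0.82, 0.82, 0.74 and 0.72, in that order, and H4c3 and H4c6 by 0.71 and 0.65. H4c4, with 89.8% own windows, and H4c9, with 71.1%, gave nearly the same change. H4c14 and H4c16 did not exceed 0.528 and 0.225 TPM.

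**Figure D2:**
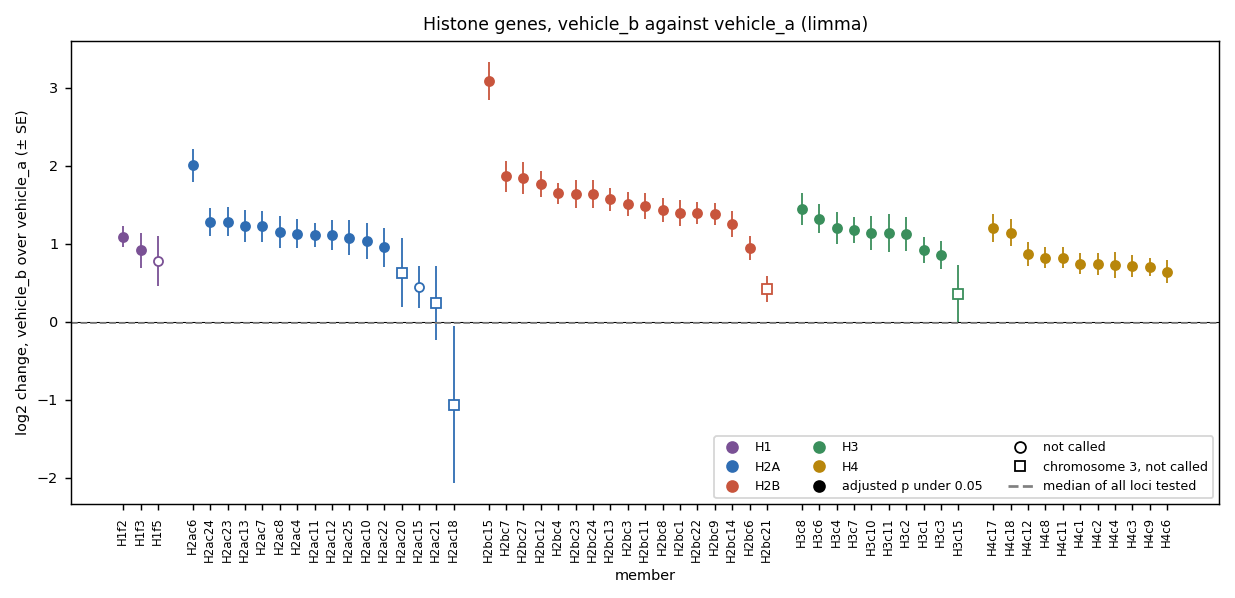
Log2 change of each tested member between vehicle_b and vehicle_a cultures (y axis, error bars SE), ordered within each class (x axis); filled symbols passed, open ones did not, and squares mark chromosome 3. The filled symbols run from 0.65 to 3.09, and the 5 members on chromosome 3 are the lowest of the H2B and H3 classes and 3 of the lowest 4 of H2A.

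Members apart from the chromosome 13 cluster behaved in different ways. Of the 50 tested on chromosome 13, 48 rose, with a median log2 change of 1.15, and both tested on chromosome 11 rose. Of the 5 tested on chromosome 3, none was called, with a median of 0.36 and a mean level of 0.697 to 3.06 TPM. H2ac20 had 2.89 and 3.86 TPM in vehicle_b cultures, against 1.06 and 3.45 TPM in vehicle_a cultures (log2 change 0.63, SE 0.44, adjusted p = 0.294). H3c15 had 3.75 and 3.22 TPM in vehicle_b cultures, against 1.73 and 3.77 TPM in vehicle_a cultures (log2 change 0.36, SE 0.37, adjusted p = 0.466). The groups overlap in both genes, with vehicle_a of isolation 54 above that of isolation 48. H2bc21 had 1.63 and 1.40 TPM in vehicle_b cultures, against 0.908 and 1.10 TPM in vehicle_a cultures (log2 change 0.42, SE 0.17, adjusted p = 0.103). H2bc21 is the chromosome 3 member whose windows are all its own, and its vehicle groups did not overlap. H2ac21 had 0.417 and 1.34 TPM in vehicle_b cultures, against 0.221 and 1.18 TPM in vehicle_a cultures (log2 change 0.24, SE 0.47, adjusted p = 0.709). The row of H2ac18, Gm20634 and H3c14 had 2.15 and 0 TPM in vehicle_b cultures, against 1.10 and 3.09 TPM in vehicle_a cultures (log2 change -1.06, SE 1.01, adjusted p = 0.437). The H2ac18 model itself had 0.565 and 0 TPM in vehicle_b cultures, against 0.378 and 1.37 TPM in vehicle_a cultures. It had no window of its own, sharing 89.2% of them with H2ac19, and the row was at 0 in 4 of the 8 libraries. H3c13, a further gene there, was at 1.45 TPM in BMP4 and 1.74 TPM in vehicle_a of isolation 54 and at 0 elsewhere. Whether the clusters differ was not tested, and these genes are among the lower ones of the family.

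Members with mostly own windows and members with mostly shared ones were both higher in vehicle_b cultures. Among members with at least 75% own windows, 10 of 12 tested rose, with a median log2 change of 0.93 and a range of 0.42 to 2.01 (the row of H2ac6). Among those with under 25%, 16 of 17 rose, with a median of 1.14. By the end of the reference transcript, 16 of 17 members with more than 100 bases after the stem-loop rose, with a median of 1.09, and 19 of 21 with 100 bases or fewer, with a median of 1.14. Of the members without stem-loop letters in their model, which may end before them, 15 of 19 rose, with a median of 1.14.

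In 9 pairs an H2B and an H2A gene face away from each other across promoter windows that overlap by 220 to 279 bases. Both members were tested in 8 pairs, and in each of these 8 the H2B gene had the higher level and the larger change. H2bc12 averaged 26.7 TPM in vehicle_b and 7.49 TPM in vehicle_a, and its partner H2ac12 averaged 2.93 TPM in vehicle_b and 1.09 TPM in vehicle_a. The pair of H2bc15 and H2ac15 lay furthest apart, at 3.09 and 0.45 on the log2 scale. H2ac15 had 1.73 and 1.62 TPM in vehicle_b cultures, against 0.749 and 1.53 TPM in vehicle_a cultures (log2 change 0.45, SE 0.27, adjusted p = 0.233), and it was the only partner not called. The difference within pairs was not tested, and each gene shares windows with its own class.

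**Figure D3:**
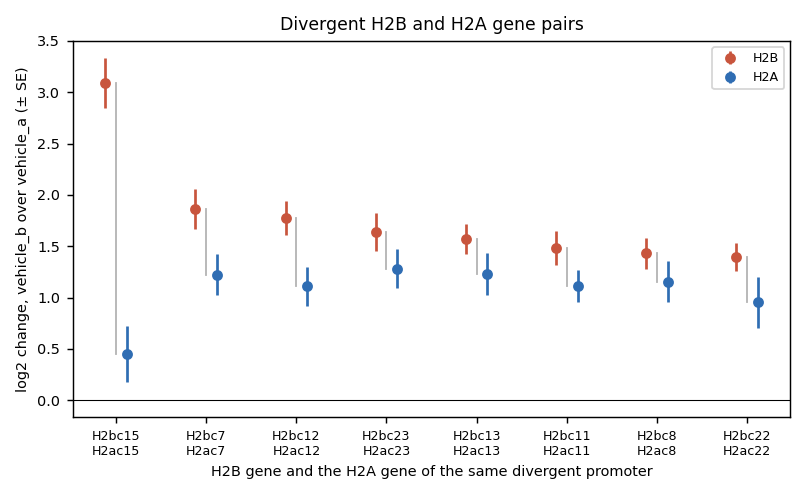
Log2 change between vehicle_b and vehicle_a (y axis, error bars SE) of the H2B gene (red) and the H2A gene (blue) of 8 divergent pairs (x axis). The H2B gene lies above its partner in each of the 8 pairs, from H2bc15 at 3.09 against H2ac15 at 0.45 to H2bc8 at 1.43 against H2ac8 at 1.16.

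Genes that act on histone mRNA and on DNA replication were read from the same fit. Of 10 tested genes for histone transcription and 3′ end processing, 2 rose and 1 fell, with a median log2 change of 0.27. Slbp, which binds the stem-loop, had 49.6 and 41.8 TPM in vehicle_b cultures, against 28.4 and 17.8 TPM in vehicle_a cultures (log2 change 1.00, SE 0.30, adjusted p = 0.0488). Casp8ap2, whose product FLASH is needed for this processing, rose by 0.73 (adjusted p = 0.0367), while Sympk, of the cleavage complex, fell by 0.49 (adjusted p = 0.028). Of 24 DNA replication genes tested, 3 rose and none fell, with a median of 0.48: Cdt1 by 1.68, Cdc6 by 1.07 and Gins1 by 0.76. That share is near the 10.6% of all loci that were higher. The most abundant, Pcna and Rrm2, had log2 changes of 0.88 and 0.27 and did not pass (adjusted p = 0.0507 and 0.392). Of 18 mitosis genes 1 fell, Ccnb2 by 0.65, with a median of 0.13. None of the 13 histone chaperone genes tested passed, with 3 at an unadjusted p under 0.05 (limma).

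The replacement histone variants, which are also made outside S phase and mostly from polyadenylated mRNAs, were called in both directions. Of 9 tested, 1 rose and 3 fell, with a median log2 change of 0.32, and the sum over the list was 1500.0 and 1357 TPM in vehicle_b cultures, against 1127 and 909.7 TPM in vehicle_a cultures. H3f3b (for H3.3) rose by 1.08 (adjusted p = 0.0175). Macroh2a2, H1f10 and H2az2 fell by 1.68, 0.86 and 0.68. The most abundant, H2az1, had 836 and 679 TPM in vehicle_b cultures, against 649 and 477 TPM in vehicle_a cultures, and was not called (adjusted p = 0.158).

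Other marker genes differed between the sets beside the histone genes. Of 17 terminal muscle differentiation genes, 13 fell, with a median log2 change of -3.65 over the 17. Their sum was 880 and 1263 TPM in vehicle_b cultures, against 7548 and 26695 TPM in vehicle_a cultures, so the vehicle_a libraries of isolations 48 and 54 also differed from each other. Myog, the myogenin gene of early differentiation, had 109.6 and 143 TPM in vehicle_b cultures, against 1301 and 2154 TPM in vehicle_a cultures (adjusted p = 0.00486). Among 7 tested muscle stem cell markers Sdc4 and Myf5 rose and Cdh15, Itga7 and Pax7 fell. Fibroblast markers summed to 29.9 and 42.0 TPM in vehicle_b and to 212 and 553 TPM in vehicle_a. Most of the vehicle_a sum was Col1a2, at 186.9 and 470.8 TPM. Among 3 tested, Col1a1 and Col1a2 were lower and Ly6a was not called. Ly6a stood at 15.36 and 10.96 TPM in vehicle_b, against 11.18 and 11.73 TPM in vehicle_a. Pdgfra, Dcn and Lum did not exceed 0.354, 0.512 and 0.0895 TPM in any library. Pericyte markers summed to 8.15 and 12.1 TPM in vehicle_b and to 23.9 and 46.6 TPM in vehicle_a, with Abcc9 and Pdgfrb lower among 3 tested. None of 4 Schwann cell markers and not the 1 tested immune marker passed, with 0 at an unadjusted p under 0.05 (limma). The 5 endothelial markers summed to at most 1.27 TPM in any library and the 4 adipocyte markers to at most 0.512 TPM, and none of these was tested. The part of these genes in the histone result was not tested.

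**Figure D4:**
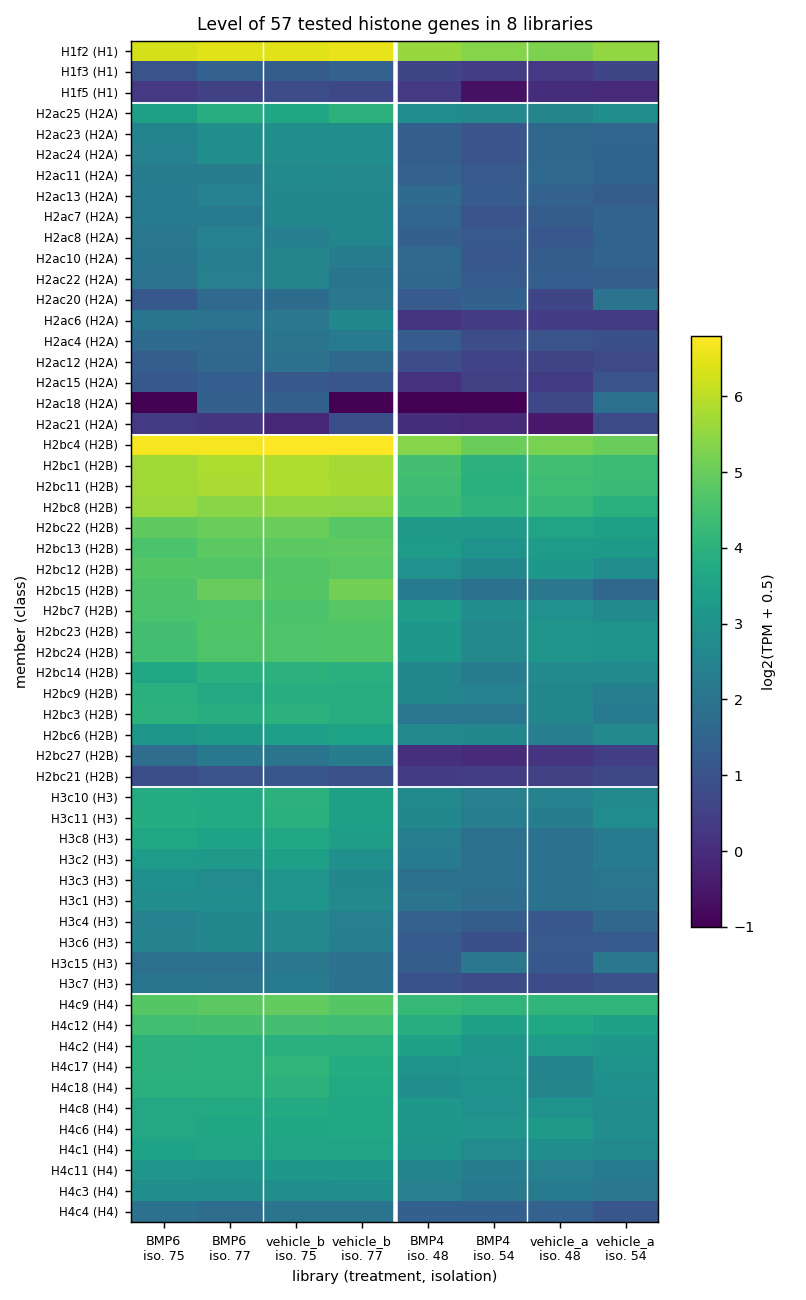
Level of the 57 tested members, as log2(TPM + 0.5) by colour, in each library (x axis, treatment and isolation) and by class (y axis, by falling mean level). The 4 libraries of set b on the left are brighter than the 4 of set a in nearly every row, from H1f2 and H2bc4 at the top of their classes to H4c4, while BMP and vehicle columns of a set look alike.

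No histone gene passed after the BMP pulse. With BMP4, 0 of 57 members passed (limma), beside 0.0237% of all loci, and none had an unadjusted p under 0.05, against 3.31% of all loci. The sum over members was 391 and 325 TPM in BMP4 cultures, against 356 and 363 TPM in vehicle_a cultures. With BMP6, 0 of 57 passed, beside 0.0118% of all loci, and 1 (1.75%) had an unadjusted p under 0.05, against 1.26% of all loci. The sum was 839 and 892 TPM in BMP6 cultures, against 925 and 901 TPM in vehicle_b cultures. The median log2 change of the members was -0.01 with BMP4 and -0.08 with BMP6, beside -0.02 and -0.0021 over all loci.

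With the isolation as a term in the fit, which takes up the difference between isolations, 0 members passed with either ligand, beside 0.633% of all loci with BMP4 and 0.148% with BMP6. At an unadjusted p under 0.05 there were then 8 members with BMP4 (14.0%, against 20.3% of all loci) and 2 with BMP6 (3.51%, against 5.72%). The smallest adjusted p of a member was 0.146 with BMP4 and 0.491 with BMP6. For the mean of both responses 0 members passed, beside 0.071% of all loci without the term and 0.674% with it, with 1 and 5 members at an unadjusted p under 0.05 (1.75% and 8.77%, against 2.40% and 13.4% of all loci). For the BMP6 response minus the BMP4 response 0 members and 0 loci passed, with or without the term; 244 loci and 0 members had an unadjusted p under 0.05 without it, and 2251 loci and 3 members with it. In voom fits with the term 0 members passed in any of these 4 comparisons, with 0, 2, 1 and 0 members and 3787, 819, 2471 and 2379 of all loci at an unadjusted p under 0.05. A p that misses the threshold does not show that the genes kept their level.

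Within isolations the direction varied. In isolation 48, 41 of 57 members were higher in the BMP4 culture than in the vehicle_a culture, with a median log2 ratio of 0.14. In isolation 54, 13 of 57 were higher, with a median of -0.22. Most members thus went in opposite directions in the BMP4 isolations, while 44.4% and 48.7% of all loci were higher. In isolation 75, 8 of 57 were higher in the BMP6 culture than in the vehicle_b culture, with a median of -0.18, and in isolation 77, 27 of 57, with a median of -0.0047. Of all loci 51.9% and 47.5% were higher in the BMP6 cultures of isolations 75 and 77.

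**Figure D5:**
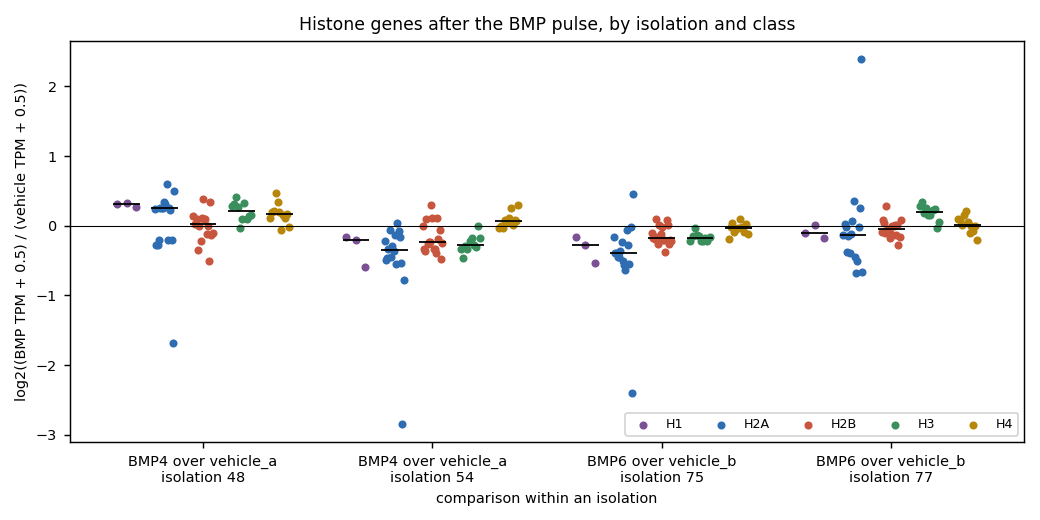
Log2 ratio of BMP over vehicle for each tested member (y axis) within each isolation (x axis), coloured by class, with the class median as a bar. Most members of isolation 48 lie above 0 and most of isolations 54 and 75 below it, and the row of H2ac18 is the far point of the H2A class.

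The classes followed this pattern to different degrees. The H4 genes all had a positive log2 change with BMP4, of 0.04 to 0.28, and 6 of 11 with BMP6, and none passed. H4c17 had the highest positive change with BMP4. It stood at 7.46 and 7.86 TPM in BMP4 cultures, against 5.24 and 7.38 TPM in vehicle_a cultures (log2 change 0.28, SE 0.18), where both BMP4 libraries lay above both vehicle_a libraries by a small margin. H2bc7 came next, at 9.54 and 6.52 TPM in BMP4 cultures, against 7.19 and 5.99 TPM in vehicle_a cultures (log2 change 0.25, SE 0.20), and here the groups overlapped. The H2A genes had a median of -0.05 with BMP4 and -0.21 with BMP6. H2ac23 stood at 2.06 and 1.56 TPM in BMP4 cultures, against 2.62 and 2.40 TPM in vehicle_a cultures (log2 change -0.39, SE 0.19). This was the lowest log2 change after the row of H2ac18, and larger in size than that of H4c17. The row of H2ac18 was at 0 in both BMP4 cultures, against 1.10 and 3.09 TPM in vehicle_a cultures, and in set b at 0 and 2.12 TPM in BMP6 cultures, against 2.15 and 0 TPM in vehicle_b cultures. Its zeros thus fall in treated and in vehicle libraries.

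With BMP6 the lowest log2 changes, which were also the largest in size, were those of H2ac20 and H2ac11. H2ac20 stood at 1.69 and 2.69 TPM in BMP6 cultures, against 2.89 and 3.86 TPM in vehicle_b cultures (log2 change -0.54, SE 0.44), without overlap. H2ac11, a gene with the stem-loop letters 23 bases from its end, stood at 4.37 and 4.42 TPM in BMP6 cultures, against 6.14 and 5.86 TPM in vehicle_b cultures (log2 change -0.41, SE 0.16). Both BMP6 libraries lay below both vehicle_b libraries there, and this was the member with an unadjusted p under 0.05 (limma adjusted p = 1). H2ac15 and H3c11 had the highest positive changes, at 0.12 and 0.10 on the log2 scale. H2ac15 stood at 1.70 and 2.03 TPM in BMP6 cultures, against 1.73 and 1.62 TPM in vehicle_b cultures. H3c11 stood at 13.5 and 13.1 TPM in BMP6 cultures, against 15.1 and 10.2 TPM in vehicle_b cultures, and in both genes the groups overlapped.

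For the mean of both responses the changes ran from -1.14 for the row of H2ac18 and -0.34 for H2ac11 to 0.14 for H4c18 and 0.16 for H4c17. For the BMP6 response minus the BMP4 response they ran from -0.56 for H2ac20 and -0.48 for H2ac4 to 0.49 for H2ac15 and 2.26 for the row of H2ac18. H2ac4 stood at 2.81 and 2.68 TPM in BMP6 cultures, against 3.49 and 4.04 TPM in vehicle_b cultures, and at 1.89 and 1.29 TPM in BMP4 cultures, against 1.50 and 1.39 TPM in vehicle_a cultures. Its vehicle_b libraries were the highest of the 8. H4c18 stood at 6.82 and 7.30 TPM in BMP4 cultures, against 5.30 and 7.05 TPM in vehicle_a cultures, close to its copy H4c17.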

How the data were processed

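The authors prepared strand-specific libraries from the poly(A) RNA of 8 cultures, with 500 ng of total RNA each, and read 50 bp from one end, per the labels' protocols. Per the submitters' processing notes, STAR 2.7.11a and SAMtools 1.17 were used with the build GRCm39. Per the file headers, the authors ran StringTie 2.2.1 with a merged annotation to make the TPM, the FPKM and the coverage signal of each transcript and exon. The headers show no correction of multi-mapping reads and no strand option, so histone paralogs, which share reads, and overlapping genes are uncertain. Joint and per-library tables matched in all 55223 rows within 1e-05 TPM.

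The members and gene lists were chosen with earlier results of these data known. limma 3.58.1 in R 4.3.3, with a variance trend and 4 group means, was run on log2(TPM + 0.5) of the 16908 loci whose mean TPM reached 0.5; this scale understates fold changes of low genes. Adjusted p values are two-sided Benjamini-Hochberg values over all these loci, called under 0.05. Tested were the response to BMP4, that to BMP6, their mean, their difference, and vehicle_b against vehicle_a. The labels give paired cultures one isolation number, and their deviations from the group means correlated at 0.707 (isolations 48 and 54) and 0.455 (75 and 77), so fits with the isolation as a block stand beside the others. The vehicle comparison has no such fit. Its spread comes from all 8 libraries taken as independent, so its p values may be too small. With only its 4 libraries, 44 members were called. The fit was tested on simulated data first. Depth was estimated as coverage times length over 50; it limits low genes, and the spread between isolations limits the rest. Windows are 50-nt stretches of reference transcripts, called own where found in no other gene.

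Values per library are printed for the 3 most abundant members of each class and for those with the 2 highest and 2 lowest log2 changes. The rule also named every called member, but 50 were called, so the others are given by log2 change and in the plot of levels. Genes of other lists were named where called or among the 2 most abundant, in part as ranges; a gene of the replication list is not reported here and was left out of its counts.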

Additional observations from a re-analysis of the deposited data

How the results depend on the processing

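For vehicle_b against vehicle_a, 50 members were called, and 43 to 50 with other pseudocounts (0.1 and 2), no filter, a mean of at least 2 TPM, FPKM, rescaled TPM, voom on estimated reads or the 4 libraries alone. Leaving out 1 library gave 0 to 51 members and 5 to 5551 of all loci (4602 with all libraries). All loci numbered 2490 with no filter and 2879 with the 4 libraries alone. The log2 ratio of summed values was 1.34 in TPM and 1.45 in FPKM. No paired analysis was possible for this comparison because its groups share no isolation.

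In the BMP comparisons 0 members were called in every fit run, so of the counts of calls only those of all loci moved. The median log2 change of the members with BMP4 did move, from -0.01 to -0.12 without BMP4 of isolation 48. It was 0.12 without BMP4 of isolation 54. With BMP4, 4 loci became 8 with no filter, 2 in FPKM, 0 with the 4 libraries alone, 107 with the replicate block and 1113 with voom and the block, which was chosen after seeing the data. With BMP6, 2 became 0 with a pseudocount of 2, 12 with no filter, 1 at a mean of at least 2 TPM, 12 with the 4 libraries alone, 25 with the block and 85 with voom and the block. For the mean, 12 became 7 with no filter, 114 with the block and 386 with voom and the block. For the difference, 0 became 1 with no filter and 72 with voom and the block. Leaving out 1 library gave 0 to 16, 0 to 11, 0 to 24 and 0 to 4 loci for BMP4, BMP6, the mean and the difference. With the block, leaving out isolation 48, 54, 75 and 77 gave 145, 97, 21 and 23 loci for BMP4, 49, 47, 0 and 2 for BMP6, 192, 119, 15 and 22 for the mean, and 15, 16, 0 and 1 for the difference. The cause was not tested.

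Of the 57 tested members, 56 had a positive log2 change between the vehicles, and 53 without vehicle_a of isolation 48. With BMP4, 28 did, against 10 without BMP4 of isolation 48 and 41 without the other BMP4 library. Single changes of sign were followed for named members only, those with the 2 highest and 2 lowest log2 changes. Between the vehicles, called members and the 3 most abundant of each class were also followed. Among these named members the sign changed in 11 cases, none of them called and all with a library or isolation left out. Between the vehicles these were H2ac18 (0.14 without vehicle_b of isolation 77) and H2ac21 (-0.37 without vehicle_a of isolation 48 and -0.26 without vehicle_b of isolation 77). With BMP6 they were H2ac15 (-0.0228 with the block and without isolation 77) and H3c11 (-0.15 in that fit, -0.17 without vehicle_b of isolation 77). With BMP4 it was H2bc7 (-0.00841 without BMP4 of isolation 48). For the difference they were H2ac18 (-0.14 with the block and without isolation 77) and H2ac20 (0.00894 with the block and without isolation 48, 0.10 without vehicle_a of isolation 48). For the mean it was H2ac18 (0.0643 with the block and without isolation 75).

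The values with 1 library left out ran from -2.26 to 0.14 for H2ac18 and from -0.37 to 0.85 for H2ac21 between the vehicles, from -0.01 to 0.51 for H2bc7 with BMP4, from -0.17 to 0.37 for H3c11 with BMP6 and from -1.23 to 0.10 for H2ac20 in the difference.

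Genes of a few TPM were limited by depth and by the 2 libraries per group, and near-identical copies cannot be told apart with reads of 50 nt.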
